A study of Mus musculus with 4 samples.

Results

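The mus copy of chromosome X was compared between Sirt7-/- (KO) and wild-type (WT) fibroblasts by Hi-C, an assay in which DNA fragments that lie near each other in the nucleus are ligated and sequenced. The cells were tail tip fibroblasts (TTF) from female mus/cas hybrid mice, with 2 KO and 2 WT replicates, and all 4 samples carried both copies of the chromosome. Sirt7 encodes a nuclear deacylase of the sirtuin family. The compared members were 250 kb bins of chromosome X with data in both the KO and the WT mus matrix. These were 592 of 683 bins, lying between 5250001 and 170000000 (mm10), and the check at 100 kb used 1470 of 1707 bins. The labels give neither the animals behind the replicates, nor an age, nor which copy was inactive. The matrices cover chromosome X and hold no expression values, so neither the deletion of Sirt7 nor the cell type could be checked in them.

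Each deposited value is a correlation coefficient, a score that says how alike 2 bins are in where they make contact. A positive value means that the bins tend to contact the same places along the chromosome, and a negative value means that they contact different places. The replicates of each genotype had been combined before deposit. Every value below therefore stands for 1 KO matrix and 1 WT matrix, has no replicate check and no test, and describes these matrices only. Since the files hold no reads, depth is unknown. Adjacent 250 kb bins correlated on average at 0.149 (WT) and 0.13 (KO), and the SD of all entries was 0.0681 in WT and 0.0596 in KO. The KO entries were thus less spread out, while their mean was 0.0334, against 0.0314 in WT.

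The inactive X of female mammals is known to fold into a pair of very large domains that meet at Dxz4, a macrosatellite bound by the architectural protein CTCF. Firre, a long noncoding RNA locus on the left-hand domain, is a second CTCF-rich landmark of the inactive X. Xist, whose RNA coats the inactive X, lies on the right-hand domain together with its antisense partner Tsix and the noncoding loci Jpx and Ftx. Distances below are counted from Dxz4, and the parts of the chromosome before and after it are called left and right. Dxz4 was placed by its host transcript 4933407K13Rik (chromosome X, 75725458 to 75764699), whose midpoint falls in the bin from 75500001 to 75750000. This bin left 235 bins on the left and 356 on the right.

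The start windows of the transcripts at Dxz4 and Firre are shown because the results below turn on these loci. Each runs from 250 bases before the start to the first 50 bases of the transcript, which are in capitals (RefSeq, GRCm38.p6, chromosome X, both on the minus strand). The window of 4933407K13Rik spans 75764650 to 75764949 and that of Firre 50635272 to 50635571.
4933407K13Rik: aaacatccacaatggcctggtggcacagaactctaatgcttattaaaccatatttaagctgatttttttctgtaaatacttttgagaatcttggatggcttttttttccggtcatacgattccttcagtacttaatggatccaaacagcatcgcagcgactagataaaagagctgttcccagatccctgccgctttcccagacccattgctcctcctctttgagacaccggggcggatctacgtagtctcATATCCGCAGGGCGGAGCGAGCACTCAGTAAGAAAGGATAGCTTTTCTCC
Firre: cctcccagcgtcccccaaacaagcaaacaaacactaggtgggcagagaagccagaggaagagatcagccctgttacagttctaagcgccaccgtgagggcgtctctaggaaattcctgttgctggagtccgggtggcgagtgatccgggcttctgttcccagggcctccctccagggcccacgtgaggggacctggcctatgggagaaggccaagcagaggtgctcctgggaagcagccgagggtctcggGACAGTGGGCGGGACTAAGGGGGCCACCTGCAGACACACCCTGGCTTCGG
The restriction enzyme of this assay, HindIII, cuts at AAGCTT, which reads the same on both strands. These letters occur in neither window, and in 106 of 1223 start windows of chromosome X (8.67%). The host transcript starts in the bin from 75750001 to 76000000, next to the bin of its midpoint.

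The map was summarised as 153 pairs of 10 Mb blocks, each pair being the mean over its bin pairs at least 2 Mb apart. In KO, 9 block pairs were higher by 0.03 or more (5.88% of block pairs) and 11 were lower by 0.03 or more (7.19%). The balance depended on the scale, with 12 higher and 4 lower after KO was scaled to the SD of WT, and 2 and 4 after the mean of each distance was subtracted. Of the 9, 7 joined the left arm from 20 to 60 Mb with the blocks from 70 to 100 Mb, and the other two joined the left tip with 40 to 60 Mb. Of the 11, 10 involved the last 40 Mb of the chromosome, and the other one was the block of the left tip itself. By any amount, 85 of 153 block pairs were higher in KO (55.6%). Differences were small beside the map itself, since WT and KO block means correlated at 0.927 over block pairs that share bins. The SD of the differences over block pairs was 0.0182, and over single bin pairs 0.0619. Of 170951 single bin pairs, 5.76% were higher by 0.1 or more and 4.8% lower by as much. Across Dxz4 these shares were 6.38% and 4.05%, and right of it 4.82% and 6.16%. By any amount, 51.5% of all bin pairs were higher in KO, and 50.7% at 100 kb. The shares of bin pairs below are read beside these.

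Block pairs were also counted by their sign in WT, which is part of the difference itself, so the counts are a description. Of 33 block pairs with a negative mean in WT, 31 were higher in KO, and of 120 with a positive mean, 66 were lower and 54 higher. In all, 89 of 153 block pairs were closer to 0 in KO, and 13 changed sign. Across Dxz4, 42 of 63 block pairs were higher in KO, among blocks left of it 14 of 28, and among blocks right of it 16 of 45. The direction was the same in 100 kb bins for 124 of 153 block pairs.

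**Figure D1:**
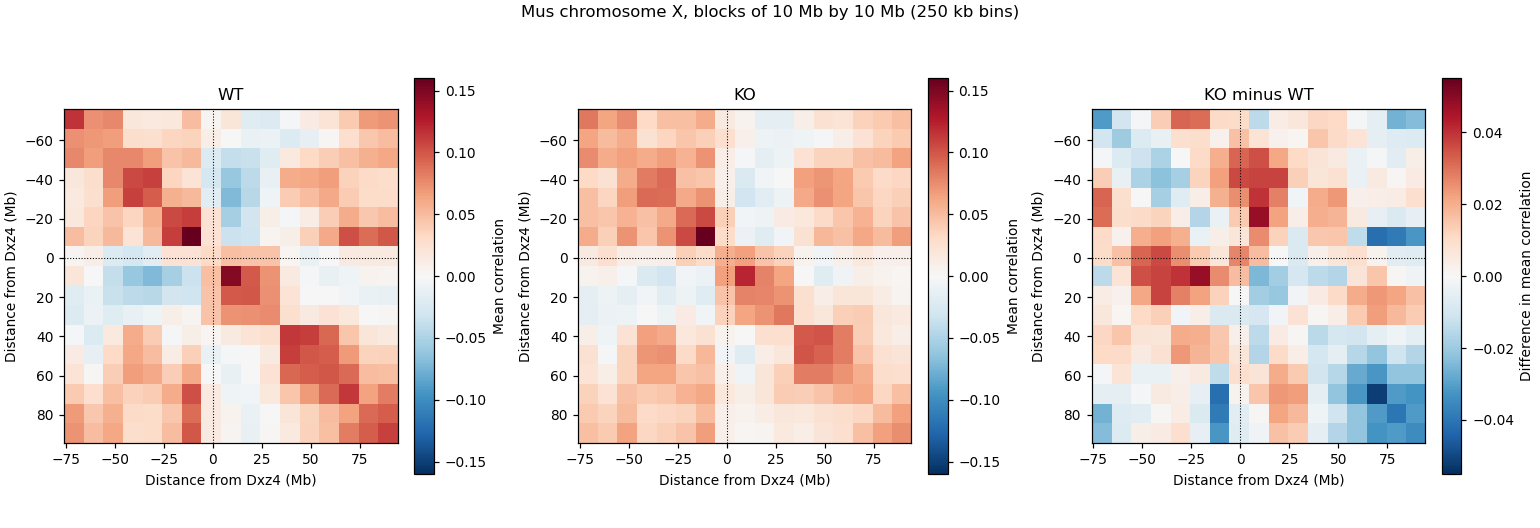
Mean correlation of 10 Mb by 10 Mb blocks of the mus chromosome X in WT, in KO and as KO minus WT, with both axes in Mb from Dxz4 and dotted lines at Dxz4. The blue off-diagonal patch of WT just right of Dxz4 is paler in KO and appears red in the difference map, and the lower right corner, the end of the chromosome, is blue there.

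The most marked gain joined the left arm with the 25 Mb just past Dxz4. Between 50 to 60 Mb and 80 to 90 Mb the mean was -0.0527 in WT and -0.00458 in KO, a difference of 0.0481, and 78.9% of 1440 bin pairs were higher. The first block holds Firre, the splicing factor gene Mbnl3 and the chromatin-associated gene Phf6. The second holds the dystrophin gene Dmd, the synaptic adhesion gene Il1rapl1, the nuclear receptor gene Nr0b1 and the glycerol kinase gene Gk. In 100 kb bins this block pair differed by 0.00913.

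The neighbouring block pairs on the left arm showed the same direction with the Dmd block. The block of 40 to 50 Mb, with the cohesin subunit gene Stag2 and the glutamate receptor gene Gria3, had -0.0707 in WT and -0.031 in KO. The block of 30 to 40 Mb, with the lysosomal membrane gene Lamp2 and the ubiquitin ligase gene Cul4b, had -0.0608 and -0.0236. The block of 20 to 30 Mb, with Timp1 and the ubiquitin-activating enzyme gene Uba1, had -0.0377 and -0.00227. The Lamp2 block also gained with 90 to 100 Mb, the block of the DNA polymerase gene Pola1, Zfx and the moesin gene Msn, from -0.0416 to -0.00458. With 70 to 80 Mb, the block that holds Dxz4 itself, it went from -0.0287 to 0.00751 and so changed sign.

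These block pairs form a rectangle, 20 to 60 Mb by 80 to 100 Mb, which was drawn after the block values were seen. Its mean was -0.048 in WT and -0.0142 in KO, with a difference of 0.0339 and an SD over bin pairs of 0.0606. All 8 of its block pairs were higher in KO, and 71.1% of its 9120 bin pairs. In 100 kb bins the means were -0.0153 and -0.00897, and 57% of 56200 bin pairs were higher, against 50.7% of all bin pairs. On the cas copy the same rectangle was positive and slightly lower in KO, 0.0639 in WT and 0.0545 in KO. The negative mean of this rectangle on mus was thus weaker in the KO matrix but kept its sign at both bin sizes. It does not stand for the arms as a whole, since the 250 kb mean over all pairs across Dxz4 was positive in both genotypes.

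The drop at Dxz4 was read bin by bin in both genotypes. The mean correlation with 20 to 60 Mb was taken for 20 bins over Dxz4. The bin starting at 75.00 Mb had 0.0214 in WT and 0.0372 in KO, the next had -0.00698 and 0.000833, and the bin of the Dxz4 midpoint had -0.0524 and -0.023. The sign thus changed 1 bin later in KO than in WT, at values near 0. The bin starting at 75.75 Mb, in which the host transcript begins, had -0.124 in WT and -0.0734 in KO, the lowest value in both genotypes among the 20 bins read. From 75.50 to 78 Mb all 10 bins were closer to 0 in KO. The same bins had lost part of their correlation with 80 to 100 Mb, and the bin at 75.75 Mb went from 0.163 to 0.141. Left of Dxz4, the bin from 73000001 to 73250000 went from -0.029 to 0.0147 with 80 to 100 Mb, and so changed sign.

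In steps of 2.5 Mb, the gain with 20 to 60 Mb was 0.0432 at 75 to 77.5 Mb and 0.053 at 77.5 to 80 Mb. It was 0.0354 at 92.5 to 95 Mb and 0.00943 at 95 to 97.5 Mb. The WT mean was -0.0714 at 75 to 77.5 Mb and -0.0102 at 100 to 102.5 Mb, whereas the KO mean was -0.0282 and -0.00679. The WT matrix thus showed a gradient away from Dxz4 that was flatter in KO. Left of Dxz4 the differences with the same region ran in both directions, from -0.0228 at 35 to 37.5 Mb to 0.0235 at 7.5 to 10 Mb, and just before Dxz4, at 72.5 to 75 Mb, the means were 0.0498 and 0.0503. In 100 kb bins the step at 35 to 37.5 Mb was lower by as much as the right steps were higher, with -0.0109 against 0.00938 at 77.5 to 80 Mb.

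**Figure D2:**
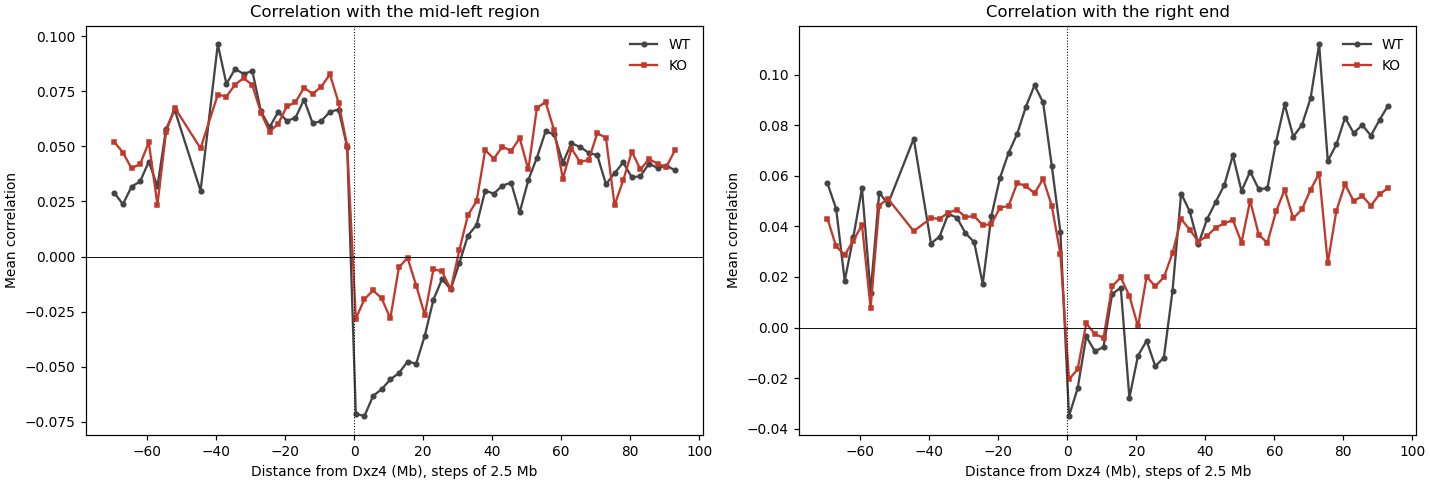
Mean correlation of 2.5 Mb steps with 2 regions, in WT (grey circles) and KO (red squares), against distance from Dxz4 in Mb: on the left with 20 to 60 Mb (mid-left region), on the right with 130 to 170 Mb (right end). In the left panel both lines drop at Dxz4, to -0.0714 in WT and -0.0282 in KO, and in the right panel the KO line lies below WT over the last 40 Mb.

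The most marked loss lay at the right end of the chromosome. Within 140 to 150 Mb the mean was 0.113 in WT and 0.0614 in KO, a difference of -0.0516, and 21% of 276 bin pairs were higher. This block holds the basement membrane collagen genes Col4a5 and Col4a6, the glucocorticoid-induced gene Tsc22d3 and the neuronal migration gene Dcx. Within 150 to 160 Mb, the block of the histone demethylase genes Kdm5c and Phf8, the cohesin gene Smc1a and the ubiquitin ligase gene Huwe1, the mean was 0.0907 and 0.0509. Within 160 to 170 Mb, with the thymosin gene Tmsb4x, the carbonic anhydrase gene Car5b and the microtubule-associated gene Mid1, it was 0.109 and 0.0746. Between 140 to 150 and 160 to 170 Mb it was 0.0813 and 0.0484.

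Over the square from 130 to 170 Mb, drawn after the block values were seen, the mean was 0.0763 in WT and 0.0468 in KO. All 10 of its block pairs were lower in KO, by 0.0216 or more, with 30.9% of 10324 bin pairs higher. At 100 kb it was 0.0224 and 0.0106, so the loss was present at both bin sizes. On cas the square had 0.0396 in WT and 0.041 in KO. In steps of 2.5 Mb, the loss with 130 to 170 Mb was -0.0404 at 150 to 152.5 Mb, the lowest among the steps of this square with 10 bins, where the mean was 0.0659 in WT and 0.0255 in KO.

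Losses within a block moved together with correlation at short range. Pairs under 2 Mb apart, which are outside all values above, were lower in KO in 16 of 17 blocks, and within 140 to 150 Mb they were 0.135 in WT and 0.0877 in KO. Over the 17 blocks the own-block difference correlated with that of the pairs under 2 Mb at 0.747, a description over neighbouring blocks of 1 pair of matrices. The part of short-range correlation or depth in these losses was not tested.

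The same right end lost correlation with a block on the other side of Dxz4. Block 60 to 70 Mb, which holds Fmr1, whose product binds RNA at synapses, its neighbour Aff2 and the developmental transcription factor gene Sox3, had a WT mean of 0.103 with 140 to 150 Mb and a KO mean of 0.0615. Its means were 0.0894 and 0.0507 with 150 to 160 Mb, and 0.0993 and 0.0673 with 160 to 170 Mb. Over the 3 block pairs the difference was -0.037, with 27% of 4440 bin pairs higher. At 100 kb it was -0.00226, and 47.6% of 27700 bin pairs were higher, so at that bin size the shift was small beside its WT mean of 0.0132. Among 78 block pairs whose starts lie 50 Mb or more apart, these held ranks 1 to 3 by WT mean and ranks 3 to 13 by KO mean. In the profile with 130 to 170 Mb the WT mean reached 0.0958 at 65 to 67.5 Mb, against 0.0531 in KO.

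Within the right arm, the region around Xist gained correlation with the right end. Over 90 to 110 Mb by 130 to 170 Mb the mean was 0.00149 in WT and 0.0202 in KO, and all 8 block pairs were higher. At 100 kb it was -0.00514 and 0.00238. Between 90 to 100 and 140 to 150 Mb it went from -0.00448 to 0.0193 and changed sign. In the profile, 102.5 to 105 Mb, which holds Xist, went from -0.0119 to 0.0199 with the right end, and 92.5 to 95 Mb, which holds Eif2s3x and Zfx, from -0.0278 to 0.0125. Past the Atrx region, 107.5 to 110 Mb had 0.053 in WT and 0.0429 in KO, but 0.00458 and 0.00566 at 100 kb, so its direction turned.

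By block, the mean difference with all other bins was highest for 40 to 50 Mb (0.013), 90 to 100 Mb (0.0109) and 30 to 40 Mb (0.0104), and lowest for 150 to 160 Mb (-0.00917), 160 to 170 Mb (-0.00896) and 140 to 150 Mb (-0.00767). The Stag2 block of 40 to 50 Mb was higher with 13 of 16 other blocks, and so was the Zfx block of 90 to 100 Mb. The Kdm5c block of 150 to 160 Mb was lower with 11 of 16 and the Tmsb4x block of 160 to 170 Mb with 11. The means of these 6 blocks had the same signs in 100 kb bins, but there the right end was close to 0, at -0.000327 for 150 to 160 Mb. Several of the counted block pairs turned at 100 kb. With 50 to 60 Mb, the differences there were 0.00343 for 150 to 160 Mb and 0.00456 for 160 to 170 Mb. The Stag2 block with 60 to 70 Mb went the other way, with 0.0196 at 250 kb and -0.00294 at 100 kb.

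Other rectangles with a like direction at both bin sizes were smaller or lay at the left tip. The left tip, 0 to 10 Mb, went from 0.0163 to 0.0478 with 40 to 60 Mb, and from 0.0703 to 0.0453 with 150 to 170 Mb. The tip holds 19 bins with data, so these values rest on few bins. The block of 80 to 90 Mb went from 0.0492 to 0.0346 with 90 to 130 Mb, on its own side of Dxz4. The left arm from 10 to 60 Mb gained with 110 to 130 Mb, from 0.0179 to 0.0333, in all 10 block pairs. These rectangles were also chosen after the values were seen. For the 8 rectangles given so far, the sign was the same with KO scaled to the SD of WT, with the mean of each distance subtracted, without the weakest bins and at 100 kb. Sizes moved more, as the gain of 90 to 110 with 130 to 170 Mb was 0.0066 after subtraction of the distance mean, and that of the left tip with 40 to 60 Mb was 0.00031 after this subtraction at 100 kb. Another pair of regions had no stable sign. The square from 20 to 60 Mb had a difference of -0.0022, but 0.00754 with KO scaled, 0.00408 less the distance mean and 0.00191 with a minimum of 5 Mb. In 100 kb bins this square was lower in KO in each setting read. The differences there were -0.00701 as deposited, -0.00618 with KO scaled and -0.00319 less the distance mean. The square from 0 to 40 Mb had -0.00806, but 0.00123 less the distance mean at 100 kb.

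Blocks on the diagonal were mostly lower in KO as deposited, with 3 exceptions. Within 1 block, 14 of 17 means were lower, and the median difference was -0.0197. Over all pairs within blocks the mean difference was -0.0154, but it was -0.00329 with KO scaled to the SD of WT and 0.00115 with the mean of each distance subtracted, so its direction depended on the scale. The block that holds Dxz4, 70 to 80 Mb, was higher, 0.0316 in WT and 0.0584 in KO, with 69.1% of bin pairs higher. This block also holds the filamin gene Flna, the matrix proteoglycan gene Bgn and the metabolic enzyme gene G6pdx left of Dxz4, and it spans both domains. The block of Xist and Atrx, 100 to 110 Mb, had 0.0761 and 0.084, and that of Fmr1, 60 to 70 Mb, 0.159 and 0.162. In 100 kb bins the last differed by -0.00314, and the block of 120 to 130 Mb, at -0.0048 in 250 kb bins, by 0.000575, so that both directions turned.

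Distance set the direction differently on either side of Dxz4 and across it. The closest pairs across Dxz4, 2 to 5 Mb apart, had a mean of 0.00711 (WT) and 0.0585 (KO), and 86.7% of these 150 pairs were higher. At 5 to 10 Mb they went from -0.0436 to -0.000924, at 20 to 30 Mb from -0.0314 to -0.00248 and at 50 to 70 Mb from 0.000511 to 0.0146. At 70 to 100 Mb they were 0.0371 and 0.0333, and this last direction turned at 100 kb, with 0.00424 and 0.00539. The mean gain across Dxz4 was thus largest for the closest pairs, and at 250 kb the means beyond 70 Mb were slightly lower in KO. Single block pairs further apart still gained, such as 40 to 50 with 120 to 130 Mb, by 0.024.

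Pairs on the right arm were lower in KO at short distances. Their WT and KO means were 0.116 and 0.0927 for distances of 2 to 5 Mb, 0.0727 and 0.0581 for 10 to 20 Mb, and -0.00944 and 0.00593 for 50 to 70 Mb. At 20 to 30 Mb the means were 0.0432 and 0.0344, and at 30 to 50 Mb 0.0132 and 0.0151. The change from loss to gain thus lay between these classes, and it did so at 100 kb too. Over all distances the right arm had a difference of -0.00438, which was 0.00034 with KO scaled to the SD of WT, so its direction depended on the scale.

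Pairs on the left arm had WT and KO means of 0.115 and 0.0986 for distances of 2 to 5 Mb, and of 0.0309 and 0.0479 for 30 to 50 Mb. In 100 kb bins the values for 30 to 50 Mb were 0.0114 and 0.0102. Over all distances the left arm had a difference of 0.00504 at 250 kb and -0.0036 at 100 kb. The gain at long range on the left arm is therefore a feature of the 250 kb matrices. The loss at 2 to 20 Mb had the same sign at both bin sizes, but at 10 to 20 Mb it was only -0.000983 at 250 kb. With KO scaled to the SD of WT the left arm had a difference of 0.0137 over all distances. The distance classes were not read with this scaling, so whether their loss depends on the scale was not tested.

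**Figure D3:**
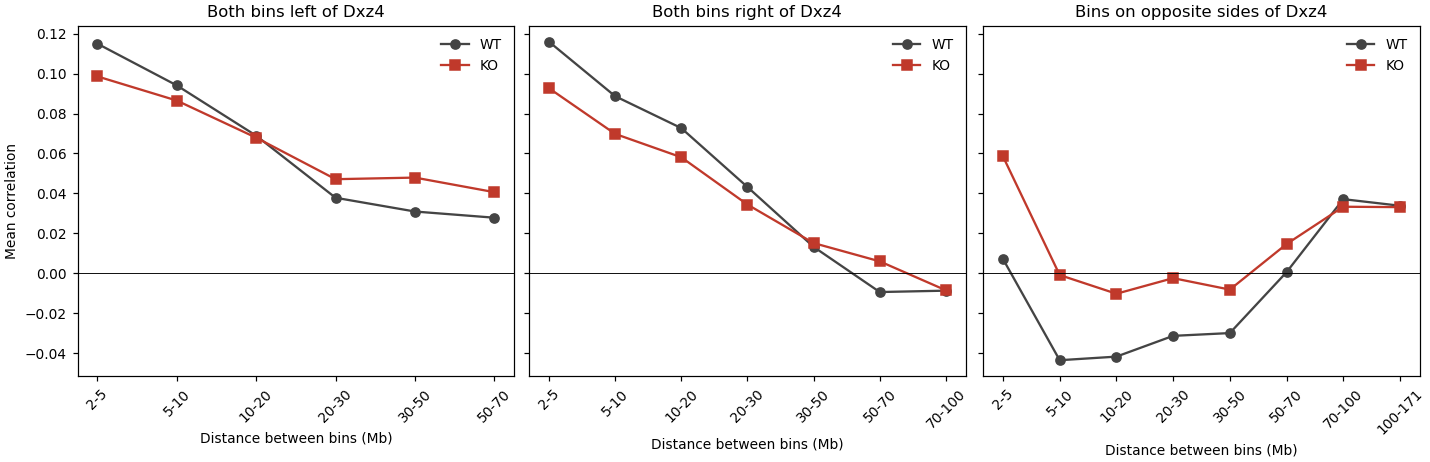
Mean correlation by distance between bins (Mb) in WT (grey circles) and KO (red squares) for pairs left of Dxz4, right of it and across it, in 250 kb bins. The lines cross once on each arm, and across Dxz4 the KO line lies above WT up to 70 Mb.

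The average correlation of each bin with all others was higher in the KO matrix for 352 of 592 bins (59.5%). The median difference was 0.00302. This count was 430 with KO scaled to the SD of WT and 301 with the mean of each distance subtracted, so it depended on the scale. In 100 kb bins it was 861 of 1470. As deposited, 179 of 235 bins left of Dxz4 were higher at 250 kb, and right of it 172 of 356. Firre stood near the top of the left arm. Its bin, 50500001 to 50750000, had a mean of 0.0192 in WT and 0.0469 in KO, rank 2 of 235 left bins by difference. The difference was 0.0424 with bins right of Dxz4 and 0.0042 with bins left of it.

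**Figure D4:**
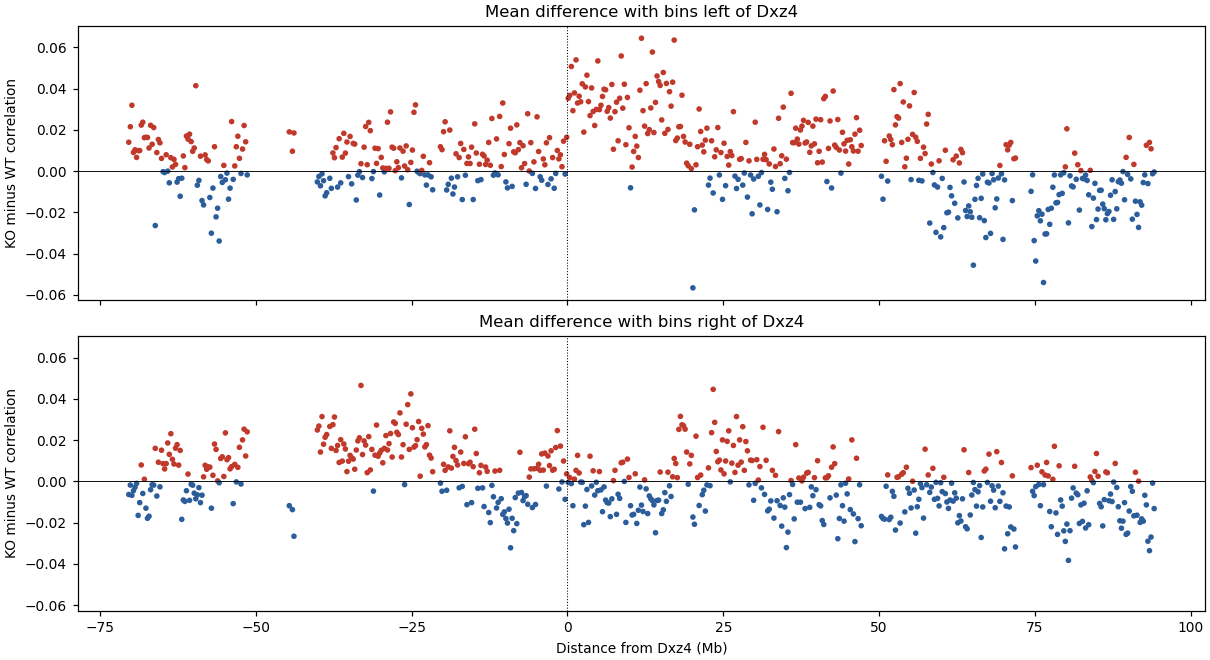
KO minus WT mean correlation of every 250 kb bin with bins left of Dxz4 (top) and right of Dxz4 (bottom), against distance from Dxz4 in Mb, with 1 point per bin, red above 0 and blue below. Points rise at Dxz4 in the top panel, and in both panels most points of the last 40 Mb lie below 0.

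The gain of the Firre bin was largest with the regions from 100 Mb on. With 100 to 130 Mb it went from -0.021 to 0.0311 and with 130 to 170 Mb from 0.0188 to 0.0665. It was higher with 75.75 to 100 Mb too, from -0.0553 to -0.032, and with the left tip on its own side, 0 to 20 Mb, from 0.025 to 0.0557. With 20 to 60 Mb it had 0.0667 in WT and 0.0616 in KO, and with 60 to 75.5 Mb 0.127 and 0.121. Averaged over its 100 kb bins, it went from -0.0106 to -0.000185 with 100 to 130 Mb and from -0.00915 to 0.00743 with 130 to 170 Mb. At 100 kb it lost about as much on its own side as it gained with 100 to 130 Mb (0.0104). The differences were -0.0109 with 20 to 60 Mb and -0.0106 with 60 to 75.5 Mb. Those with 0 to 20 Mb and 75.75 to 100 Mb were 0.00235 and 0.0044. These profiles by region were read after the bin values were seen.

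The bin shared by Xist, Tsix and Jpx, 103250001 to 103500000, had -0.00671 in WT and 0.00745 in KO, rank 50 of 356 right bins. The next bin, that of Ftx, had -0.00719 and 0.00082, rank 94. The Xist bin had 0.0841 and 0.07 with 75.75 to 100 Mb, and -0.042 and 0.0117 with 130 to 170 Mb. At 100 kb the last pair was -0.0117 and -0.00109. The bin of the Dxz4 midpoint had 0.00242 and 0.0111, but its difference at 100 kb was -0.00107. All 4 structural bins were thus higher in KO at 250 kb, with a median of 0.0114, against 352 of 592 over all bins.

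Among gene-holding bins right of Dxz4 whose difference kept its sign at 100 kb, the highest was that of Eif2s3x, which encodes a translation initiation factor subunit and escapes X inactivation, and its neighbour Zfx, a transcription factor gene. The bin went from -0.0217 to 0.00939. In WT it correlated at -0.0832 with 60 to 75.5 Mb and at -0.0668 with 130 to 170 Mb, and in KO these were -0.0375 and 0.00667. With its own neighbourhood, 75.75 to 100 Mb, it went the other way, from 0.104 to 0.0758. At 100 kb the 3 differences had the same signs, 0.00897, 0.0136 and -0.0126.

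The bins beside Eif2s3x were among the 6 highest as well. The bin of Pdk3, a kinase of pyruvate dehydrogenase, went from -0.00592 to 0.0215, that of Pcyt1b, an enzyme of phosphatidylcholine synthesis, from -0.00727 to 0.0164, and that of Apoo and Klhl15 from -0.00802 to 0.0147. These 4 bins adjoin and are not separate observations. Away from them, the bin of the ephrin gene Efnb1 and Stard8 went from -0.00457 to 0.0175, and that of the testis homeobox genes Tgif2lx1 and Tgif2lx2 from 0.0205 to 0.0462.

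Less than 2 Mb further along lay the lowest bin of the right arm, that of Las1l, a ribosome biogenesis gene, and Zc3h12b. It went from 0.0196 to -0.0136. The loss was largest with the left arm, from -0.00486 to -0.0594 with 0 to 20 Mb and from 0.00289 to -0.0845 with 60 to 75.5 Mb. With the right arm it was smaller, -0.0204 with 75.75 to 100 Mb and -0.0206 with 130 to 170 Mb, and at 100 kb these were 0.000622 and -0.000545. The next bin, that of Msn, which links actin to the membrane, went from -0.00307 to -0.0231. Both therefore went against the gain of their surroundings with the left arm. At 100 kb the Las1l bin had differences of -0.00931 with 0 to 20 Mb and -0.0139 with 60 to 75.5 Mb. Those of the Msn bin with the same regions kept their sign but were small, at -0.000924 and -0.00206. Its difference with 130 to 170 Mb turned, from -0.0133 at 250 kb to 0.00588 at 100 kb. With 75.75 to 100 Mb it was -0.0091 at 100 kb, a loss as at 250 kb.

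The other low bins of the right arm lay near its end. The bin of Smc1a, a cohesin subunit gene, and the synaptic gene Iqsec2 went from 0.0377 to 0.015. With 60 to 75.5 Mb it went from 0.067 to -0.0146 and with 130 to 170 Mb from 0.0567 to 0.00737, whereas with 75.75 to 100 Mb it went from 0.0122 to 0.0699. At 100 kb these differences were -0.0152, -0.012 and 0.0212. In the KO matrix this bin was thus more like the region next to Dxz4 and less like the right end around it.

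Its neighbours showed the same pattern in part. The bin of Kdm5c, which escapes X inactivation, went from 0.0479 to -0.0154 with 60 to 75.5 Mb and from -0.00814 to 0.0227 with 75.75 to 100 Mb. That of Huwe1 went from 0.0503 to 0.012 and from -0.00751 to 0.0224. Further low bins were those of Cldn2 and Morc4, from 0.057 to 0.0343, of Rnf128 and Radx, from 0.058 to 0.0371, of Samt2b and Samt4, from 0.0518 to 0.0304, and of the transcription factor gene Klf8 and Ubqln2, from 0.0547 to 0.0345.

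On the left arm, bins with named protein-coding genes and the same sign at 100 kb were ranked. The highest was that of Sh2d1a, an adaptor of lymphocyte signalling, from 0.0164 to 0.0465. With 75.75 to 100 Mb it went from -0.0907 to -0.0195 and with 100 to 130 Mb from 0.00911 to 0.062. The bins of Fsip2l, of Sox3, of the olfactory receptor gene Olfr1323, of Fhl1, Adgrg4 and Map7d3, and of the chromatin remodeller gene Smarca1 with Ocrl followed, with differences of 0.0248, 0.0243, 0.0232, 0.0227 and 0.022. All 6 lie between 42.50 and 61 Mb. Bins without such genes were also high, such as the Firre bin (0.0277) and the bin from 23750001 to 24000000 (0.024).

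Among left bins with named protein-coding genes and the same sign at 100 kb, the lowest differed by less. That of the synaptic gene Slitrk2 went from 0.0601 to 0.0482, with 0.114 in WT and 0.0606 in KO against 130 to 170 Mb, the partner region of its block. That of Efhc2 went from 0.0288 to 0.0192. The others were the bin of Dgkk, a diacylglycerol kinase gene (-0.00638), that of Zfp449 and Ints6l (-0.00627) and a pair of bins with the Ssxb cluster (-0.00605 and -0.00483), near the left tip. Bins without such genes lay lower still, down to -0.0195 in the bin from 18500001 to 18750000.

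The gene lists were read as 1 value per bin and set beside the 352 of 592 bins that were higher over the chromosome as deposited, a count that depended on the scale. Of 11 bins of genes that escape X inactivation, 8 were higher in KO, with a median of 0.00624 against 0.00302 over all bins. The highest were those of Eif2s3x and Firre, and the lowest those of Kdm5c (-0.0105) and Car5b (-0.00907), both near the right end. Of these 11 bins, 6 had the same sign at 100 kb, and those of Kdm5c (0.000195) and Car5b (9.80e-05) were among those that turned.

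Of 13 bins of genes silenced on the inactive X, 10 were higher, with a median of 0.00896. The highest were those of Lamp2, from 0.0215 to 0.0433, and of Flna, from 0.0268 to 0.0458, and the lowest those of Smc1a and of Huwe1 (-0.00567). The Lamp2 bin went from -0.0643 to -0.00323 with 75.75 to 100 Mb. Escape and silenced genes thus both held bins in either direction, and no difference between these lists was tested.

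Genes typical of fibroblasts and connective tissue had 5 of 12 bins higher and a median of -0.00716. By arm, all 5 bins left of Dxz4 were higher, with Fhl1 (0.0227) and Flna (0.019) at the top, and all 7 right of it were lower, with Msn (-0.02) and Tmsb4x (-0.0183) at the bottom. Over all bins 179 of 235 were higher on the left and 172 of 356 on the right. However, all of the listed right bins except that of Msn lie between 130 and 170 Mb. Mean differences of the blocks there with all other bins were all negative, from -0.00348 (130 to 140 Mb) to -0.00917 (150 to 160 Mb). Whether the loss goes with this list or with its position was not tested. Timp1, which inhibits matrix metalloproteinases, went from 0.0331 to 0.0463, and Col4a6 from 0.047 to 0.0371. In 100 kb bins 9 of these 12 bins had the same sign, and the list's median was -6.14e-06.

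A list of neuronal genes and a list called germline were read as a contrast. Neuronal genes had 6 of 12 bins higher, with a median of 0.000314. The highest were Il1rapl1 (0.0142) and the protocadherin gene Pcdh19 (0.0132), and the lowest Iqsec2 (-0.0227), which shares the Smc1a bin, and the kinase gene Pak3 (-0.0179). The germline list was taken by symbol alone, as all genes whose symbol starts with Xlr, Slx, Mage, Rhox, Ssx, Usp26 or Spin2. It is therefore not limited to genes active only in the germline, which holds for the Maged and Mageh genes named here. The list filled 36 bins, of which 28 were higher, with a median of 0.00648. Its members included Rhox7-ps1, in the Lamp2 bin (0.0218), Maged1 (0.0207), Maged2 (-0.0191) and Mageh1 (-0.0192). Many genes of this list are clustered, so several share a bin or adjoin.

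Gene density showed little relation to the block differences. Over 17 blocks the number of protein-coding genes correlated with the own-block difference at 0.165 and with the difference against all bins at 0.0224, values given as a description since blocks share partners.

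The cas copy of the same cells gave a scale for these differences. Over the 153 block pairs the SD of KO minus WT was 0.0156 on cas, against 0.0182 on mus. On cas 0 block pairs were higher by 0.03 or more and 8 were lower, with no replicates on either copy. The differences of mus and cas over block pairs correlated at -0.059, so where mus gained or lost correlation had little relation to where cas did. The difference between the copies was not tested.

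Block differences at 250 and 100 kb correlated at 0.75, but they were smaller at 100 kb, with an SD of 0.0053. The scale of the values differs between bin sizes, with adjacent bins at 0.046 in WT and 0.0401 in KO at 100 kb. With the threshold lowered to 0.0135, in proportion to the SDs of the WT entries, 4 block pairs were lower and 0 higher at 100 kb. The gains in the rectangle across Dxz4 thus kept their sign at 100 kb but did not reach the scaled threshold, whereas part of the losses at the right end did.

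**Figure D5:**
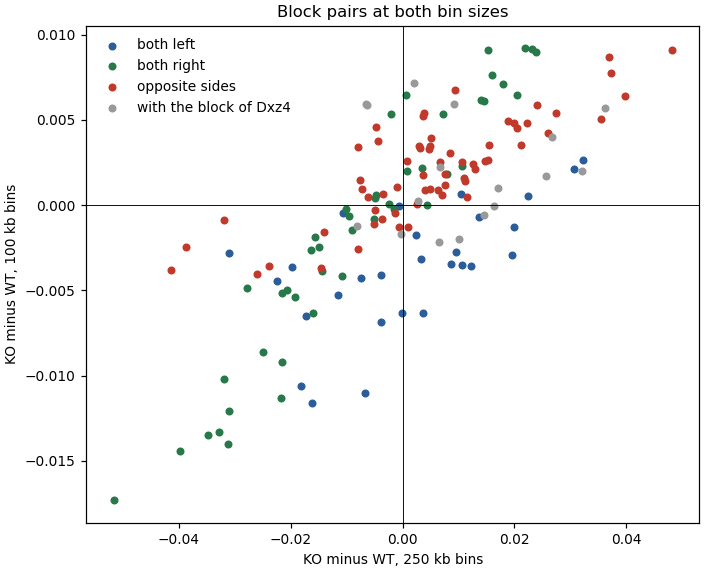
KO minus WT difference of each of 153 block pairs at 250 kb (x axis) and at 100 kb (y axis), both as differences of mean correlation and coloured by the position of the blocks. The points follow a rising trend (r = 0.75), the lowest at both bin sizes are block pairs right of Dxz4, and most block pairs left of Dxz4 lie below 0 at 100 kb.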

How the data were processed

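Per the file headers, each deposited matrix is a HOMER correlation matrix whose values are scores, correlation coefficients between the contact profiles of bins, made by the authors from the combined replicates of a genotype, 1 per allele and bin size. Per the submitters' processing notes, cutadapt, Bowtie2, HOMER, Juicer and build mm10 were used, and the sources used here give neither their versions nor the contact normalization nor the allele rule. Per the labels' protocols, cells were fixed in 2% formaldehyde and chromatin was cut with HindIII. The design text of the series names an assay of Xist binding, but labels and headers give Hi-C.

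KO minus WT was computed with Python 3.11.15 and numpy 2.4.6 over bins with data in both mus matrices (250 kb, with 100 kb as the check). Pairs at least 2 Mb apart were averaged into 10 Mb blocks holding at least 20 bin pairs, and a block pair was counted past 0.03. Genes were placed by midpoint from RefSeq (GRCm38.p6, the same build). The members, lists and thresholds were chosen with earlier results of these data known. Named genes are the structural loci, landmark genes of the 6 highest and 6 lowest block pairs, protein-coding genes in the 6 highest and 6 lowest bins of each arm with the same sign at 100 kb, and the 2 highest and 2 lowest of the escape, silenced, fibroblast, neuronal and germline lists. A landmark gene under this rule is left out. Other genes named, and all rectangles, profiles and edge bins, were chosen after the values were seen. The functions were tested on simulated matrices. Settings tried were 100 kb bins, a minimum of 5 Mb, KO scaled to the SD of WT, matrices less their mean at each distance, bins other than the weakest, blocks other than that of Dxz4, block medians, a shifted grid and other thresholds.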

Additional observations from a re-analysis of the deposited data

How the results depend on the processing

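No paired analysis was possible because the replicates of each genotype had been combined into 1 matrix before deposit, and for the same reason no replicate could be left out. Depth is unknown, and smaller bins hold fewer reads. Of 69 alternative values, 36 kept the direction and lay within 1.5 times the reported value, 29 moved further and 4 changed sign; the cause was not tested. At 100 kb no block pair passed 0.03 in either direction (0 and 0), and 0 higher and 4 lower passed the scaled threshold, an alternative added after the data were seen. In 250 kb bins the mean difference was 0.00249 over all pairs and 0.00664 across Dxz4. It was -0.00934 in neighbouring blocks and 0.00458 in far blocks, whose starts lie 50 Mb or more apart. At 100 kb the mean difference was 0.000591 over all pairs, 0.00253 across Dxz4, -0.0036 left of it (sign changed) and -0.000321 right of it. Within blocks it was -0.00614, in neighbouring blocks -0.00471 and in far blocks 0.00286. With KO scaled to the SD of WT, 4 block pairs were lower, and the means were 0.00696 over all pairs, 0.0137 left, 0.00034 right (sign changed), -0.00329 within blocks, -0.00014 in neighbouring and 0.00794 in far blocks. With the mean of each distance subtracted, 2 block pairs were higher and 4 lower, and the means were 0.0038 across, -0.00691 right, 0.00115 within blocks and 0.000134 in neighbouring blocks (sign changed in both), and 0.00025 in far blocks, while the mean over all pairs is 0 by construction. Bins among the weakest 10% of either matrix, by the SD of their entries, were left out in another setting. This kept 496 of 592 bins, and 5407 of 10324 bin pairs in the square from 130 to 170 Mb. The difference of that square was then -0.0276, against -0.0295. In this setting 6 block pairs were lower, and the means were 0.00406 over all pairs and 0.00997 across. Without the 70 to 80 Mb block the mean over all pairs was 0.00156. At a threshold of 0.02, 22 block pairs were higher and 20 lower, and at 0.05, 0 and 1. The other settings, which were a minimum of 5 Mb, block medians and a grid shifted by 5 Mb, kept every direction and every count within 1.5 times.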
